A study of Mus musculus with 6 samples.

Results

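The miR-135 family was measured here as 4 rows among the 778 mature miRNAs of the table. They are every listed row of the hairpins mir-135a-1, mir-135a-2 and mir-135b, on either arm. The rows, as the table names them, are mmu-miR-135a-2-3p, mmu-miR-135a-5p, mmu-miR-135b-5p and mmu-miR-135b-3p, written below without the species prefix. The family was selected on the measured levels of miR-135a-2-3p, already known to be higher after transforming growth factor β1 (TGF-β1), so its values are given as a description and no test is applied to any of the 4 rows. The question was whether that higher level was shared by the other rows, and how much the small number of reads allows to be said.

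Small RNA was sequenced from primary mesangial cells of the mouse, which are contractile cells that support the capillaries of the glomerulus in the kidney. The 3 libraries of the Control group received no cytokine, and the 3 libraries of the TGF-b1 group came from cells exposed to TGF-β1 at 10 ng/ml for 72 h. Both groups were grown in 25.5 mM glucose, a high concentration, with 20% foetal bovine serum and used at passages 3 to 6. The sources used here give no strain, sex or age for the donor mice and no culture time for Control, and they do not say whether the 3 libraries of a group were separate cultures, so the spread between libraries may be technical.

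A miRNA hairpin yields a 5p and a 3p mature arm, of which the one loaded into the Argonaute complex as the guide selects targets mainly through its seed, bases 2 to 8. In most accounts of the family the guide is the 5p arm. miR-135a-5p and miR-135b-5p are known to repress Apc, a brake on Wnt/β-catenin signaling, as well as Smad5, a transducer of bone morphogenetic protein signals, and Runx2, the transcription factor that drives bone-forming cells. miR-135a is also known for its expression in the brain. Less has been described for the 3p arms.

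The mature sequences are shown first because they decide which reads can be told apart. They were taken from RefSeq (GRCm38.p6), run 5′ to 3′, and carry the seed in capitals. A RefSeq sequence was matched for 3 of the 4 rows and for the 3p arm of mir-135a-1, which has no row and was not analysed here. miR-135b-5p is given by name only.
miR-135a-5p: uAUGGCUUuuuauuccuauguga
miR-135a-2-3p: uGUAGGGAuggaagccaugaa
miR-135a-1-3p: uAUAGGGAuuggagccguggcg
miR-135b-3p: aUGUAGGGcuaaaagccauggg

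The 5p arm of mir-135a-1 and that of mir-135a-2 are 1 and the same sequence, so reads of miR-135a-5p cannot be assigned to either hairpin. The 3p arm differs between them. Over 21 bases miR-135a-2-3p differs from miR-135a-1-3p at 6 positions, G2A, G10U, A12G, A17G, A20G and A21C, counted from the 5′ end of miR-135a-2-3p. miR-135a-2-3p is therefore the row that reports on mir-135a-2 alone. miR-135b-3p starts 1 base earlier and differs from it at 5 of 21 aligned bases, A8C, G10A, G11A, A20G and A21G. It was also the closest of all 1679 mature names in RefSeq. The seeds GUAGGGA and UGUAGGG are thus offset by 1 base, and none of the other RefSeq mature sequences carried the seed of any sequence shown. miR-135b-5p was not part of that search. It is known to share the seed of miR-135a-5p and to be nearly identical to it, so the division of reads between the 5p rows is uncertain. How reads matching several miRNAs were counted is not given in the sources used here. Some rows held the same reads in every library, such as miR-467a-5p and miR-467b-5p, so a read could be counted in several rows. The 5p rows of the family did not repeat each other, and no other row of the table repeated the values of miR-135a-2-3p.

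The 3 hairpins lie on different chromosomes. On NCBIM37, with GENCODE vM1 annotation, Mir135a-2 occupies chr10:91534831-91534930 on the minus strand, outside annotated genes, and its nearest gene is the long non-coding RNA Rmst on the same strand at 9561 bp. Mir135a-1 occupies chr9:106056455-106056544 on the plus strand, within an intron of the long non-coding RNA D030055H07Rik and across an untranslated exon of Glyctk on the opposite strand. Mir135b occupies chr1:134094665-134094761 on the plus strand within an intron of Lemd1. The RefSeq hairpin sequences matched the genome at all 3 positions. The mir-135a-2 hairpin is shown because it holds both arms of the contrast described here, with the 5p arm and then the 3p arm in capitals.
mir-135a-2: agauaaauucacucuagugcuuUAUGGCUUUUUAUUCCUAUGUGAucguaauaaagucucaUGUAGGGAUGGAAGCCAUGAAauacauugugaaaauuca

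Every row of the family was rare. The libraries held 16478281 to 17623671 reads in Control and 17086815 to 20169254 in TGF-b1, and the values are RPM, in which the reads of a row are divided by the library total and multiplied by 1000000, without scaling by length. At these depths 1 read was worth 0.0496 to 0.0607 RPM. A library with 0 reads still allows up to 3 reads, or 0.149 to 0.182 RPM. The limits of reads and the intervals of read ratios and read shares are for counting error alone. They leave out the spread between libraries and may be too narrow, also because amplified reads need not stem from separate molecules. The intervals of log2 differences come from the limma fit and rest on the spread between libraries. The 4 rows summed to 30 reads over the Control libraries and 138 over the TGF-b1 libraries.

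miR-135a-2-3p was the most abundant row of the family in both groups. Control replicates 1 to 3 had 4, 9 and 8 reads, or 0.243, 0.540 and 0.454 RPM. TGF-b1 replicates 1 to 3 had 45, 29 and 43 reads, or 2.23, 1.62 and 2.52 RPM. All 3 TGF-b1 libraries lay above all 3 Control libraries, and the lowest of them had 3 times the RPM of the highest Control library (1.62 against 0.540). The 95% Poisson limits were 4.12 to 17.1 for the 9 reads of the highest Control library and 19.4 to 41.6 for the 29 reads of the lowest TGF-b1 library. The group means were 0.412 ± 0.153 and 2.12 ± 0.459 RPM (SD, n = 3 each), and the row moved from rank 429 to rank 300 among the 778 rows.

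On the log2(RPM + 1) scale the difference of miR-135a-2-3p was 1.14 ± 0.16 (SE, 95% interval 0.78 to 1.50). Adding 1 RPM shrinks the difference of a row this low, and the ratio of pooled reads, 117 against 21 per library total, was 5.13 with a 95% interval of 3.20 to 8.60. The ratio was lowest at 4.28 without Control replicate 1 and highest at 6.03 without Control replicate 2. Reads of listed miRNAs made up 79.5 to 79.8% of each Control library and 71.6 to 73.1% of each TGF-b1 library, and with RPM set against the listed rows alone the log2 difference was 1.37. These are RNAs of whole cultures, in which more cells with a miRNA and more of it per cell cannot be told apart.

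miR-135a-5p, the arm made by both miR-135a hairpins, did not show that pattern. Control replicates 1 to 3 had 2, 3 and 3 reads, or 0.121, 0.180 and 0.170 RPM. After TGF-β1, in the same order, it had 0, 3 and 7 reads, or 0, 0.167 and 0.410 RPM. The groups overlapped, since TGF-b1 held both the lowest and the highest library. The means were 0.157 ± 0.0313 and 0.192 ± 0.206 RPM (SD, n = 3 each), and the log2 difference was 0.03 ± 0.11 (SE, 95% interval -0.23 to 0.28). Pooled reads were 8 in Control and 10 in TGF-b1, a ratio of 1.15 with a 95% interval of 0.409 to 3.35. This ratio rested on single libraries, being 1.81 without TGF-b1 replicate 1 and 0.500 without TGF-b1 replicate 3.

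**Figure D1:**
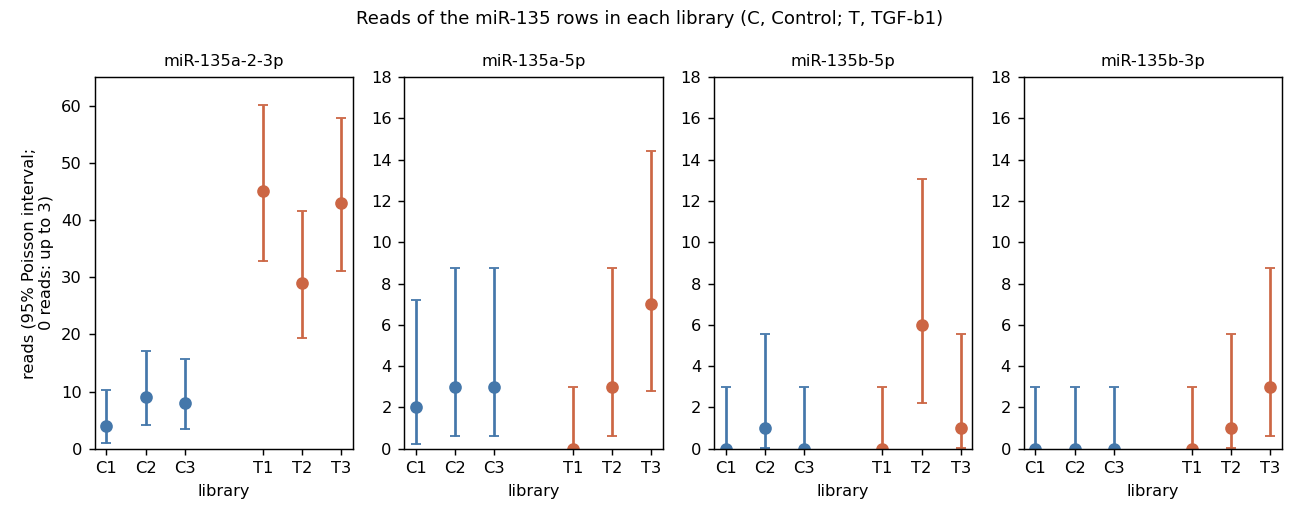
Reads of the 4 miR-135 rows (y axis, scaled separately for the first panel) in each Control (C1 to C3, blue) and TGF-b1 (T1 to T3, orange) library, with 95% Poisson intervals and 0 reads drawn up to 3. The TGF-b1 libraries of miR-135a-2-3p, at 29 to 45 reads, lie above the Control libraries at 4 to 9 reads, while the groups overlap in the other 3 panels.

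miR-135b-5p was close to the detection limit. Control replicates 1 to 3 had 0, 1 and 0 reads, whereas TGF-b1 replicates 1 to 3 had 0, 6 and 1. In RPM these were 0, 0.0599 and 0 against 0, 0.335 and 0.0585. Only TGF-b1 replicate 2 stood apart, and the groups overlapped. The means were 0.0200 ± 0.0346 and 0.131 ± 0.179 RPM (SD, n = 3 each), with a log2 difference of 0.14 ± 0.10 (SE, 95% interval -0.08 to 0.36). The pooled ratio, 7 reads against 1, was 6.44, but its 95% interval ran from 0.828 to 290.4. Without TGF-b1 replicate 2 the reads were 1 and 1 and the ratio was 1.36 (95% interval 0.0174 to 107).

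miR-135b-3p, the other arm of that hairpin, had 0 reads in all 3 Control libraries and 0, 1 and 3 in TGF-b1 replicates 1 to 3, or 0, 0.0558 and 0.176 RPM. The groups overlapped at 0. Its TGF-b1 mean was 0.0771 ± 0.0897 RPM (SD, n = 3), and the log2 difference was 0.10 ± 0.06 (SE, 95% interval -0.03 to 0.24). With no Control read the pooled ratio has no upper limit, and its lower 95% limit was 0.608, so the 4 reads set no direction. Of the 51 rows with 0 Control reads, 7 had at least 4 reads in TGF-b1, including miR-135b-3p, and 6 rows had the reverse pattern.

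The order of the levels was the same in both groups by mean RPM, with miR-135a-2-3p first, then miR-135a-5p, miR-135b-5p and miR-135b-3p. In Control the libraries of miR-135a-2-3p lay above those of miR-135a-5p, although 4 reads and 3 reads have overlapping Poisson limits, and those of miR-135a-5p lay above those of miR-135b-5p. The miR-135b rows overlapped each other. In TGF-b1 the libraries of miR-135a-2-3p, at 1.62 RPM or more, lay above those of every other row, at 0.410 RPM or less, and the other 3 rows overlapped. Of all reads of the family, miR-135a-2-3p took 70% in Control and 84.8% in TGF-b1.

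Whether the difference was shared can be put as a count. In 1 of the 4 rows, miR-135a-2-3p, all TGF-b1 libraries lay above all Control libraries, against 14.3% of all 778 rows. That row was the one chosen for its level, so nothing is read from this share. In the other 3 rows, all of few reads, the groups overlapped. miR-135a-2-3p was also the only row of the family among the 408 that passed the filter on low values (at least about 10 reads in 3 libraries). It passed through its TGF-b1 libraries alone, so it had to differ, and nothing is read from the 49.3% of those 408 rows that limma called in either direction (201 rows), the 17.4% called higher in TGF-b1 (71 rows) or the 20.8% whose TGF-b1 libraries all lay above Control. The median log2 difference over the 408 rows was -0.17. It was -0.03 with TMM scaling and 0.07 with upper-quartile scaling. The shift of this median with scaling cannot be set against the other 3 rows (0.03 to 0.14). Adding 1 RPM shrinks any change in rows this low. With upper-quartile scaling their differences were 0.081 for miR-135a-5p, 0.174 for miR-135b-5p and 0.119 for miR-135b-3p.

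**Figure D2:**
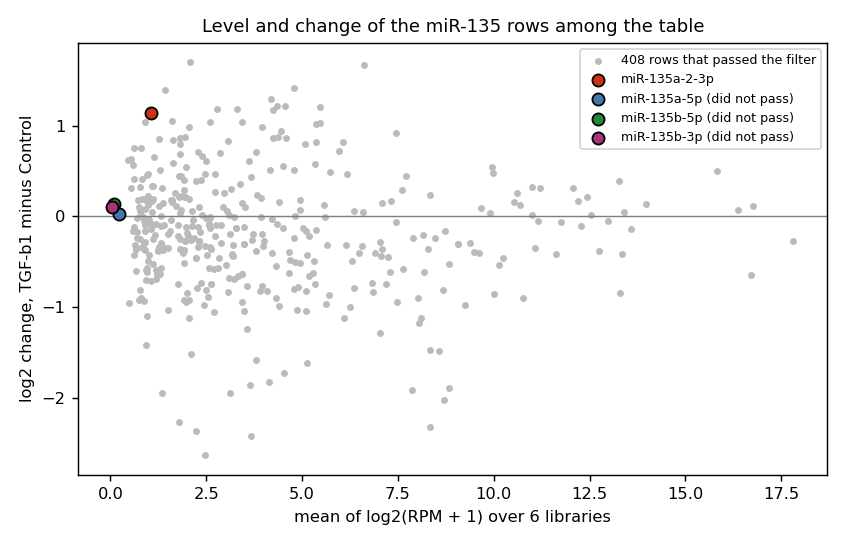
Log2 difference, TGF-b1 minus Control (y axis), against the mean of log2(RPM + 1) over 6 libraries (x axis) for the 408 rows that passed the filter (grey) and the 4 miR-135 rows (large points). miR-135a-2-3p sits at 1.14, and the other 3, which did not pass, sit between 0.03 and 0.14 at the left edge.

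The read numbers give an unequal view of the remaining rows. Had miR-135a-5p followed the ratio of miR-135a-2-3p, its 8 Control reads would correspond to 44.6 reads in TGF-b1, and 10 were counted (95% Poisson limits 4.80 to 18.4). The ratio of miR-135a-2-3p was 4.46 times that of miR-135a-5p, with a 95% interval of 1.34 to 14.1. Without TGF-b1 replicate 1, the library with 45 reads of the 3p row and 0 of the 5p row, it was 2.74 (0.819 to 8.80), and without TGF-b1 replicate 3 it was 9.40 (1.98 to 58.2). Since miR-135a-2-3p was chosen for its level in TGF-b1, these values describe the libraries and are no test.

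For miR-135b the reads were too few to say how close its ratio was to that of miR-135a-2-3p. The single Control read of miR-135b-5p would correspond to 5.57 reads in TGF-b1 at the ratio of miR-135a-2-3p, and 7 were counted (95% Poisson limits 2.81 to 14.4). The ratio of miR-135a-2-3p was 0.796 times that of miR-135b-5p, with a 95% interval of 0.0169 to 6.75. Both arms of mir-135b together had 1 read in Control and 11 in TGF-b1, a ratio of 10.1 (95% interval 1.47 to 435.8), which became 5.45 (0.540 to 268.5) without TGF-b1 replicate 2. TGF-b1 replicate 1, the deepest library, had 0 reads of either arm, and replicates 2 and 3 had 7 and 4.

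The 3 rows other than miR-135a-2-3p summed to 2, 4 and 3 reads in the Control libraries, in order of replicate, and to 0, 10 and 11 in the TGF-b1 libraries. TGF-b1 replicate 1 was below every Control library and the other two TGF-b1 libraries were above. The pooled ratio of 21 to 9 reads was 2.15 (95% interval 0.943 to 5.33), or 3.39 (1.49 to 8.40) without TGF-b1 replicate 1. All 4 rows together had 6, 13 and 11 reads against 45, 39 and 54, a ratio of 4.23 (2.84 to 6.51), carried mostly by miR-135a-2-3p.

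**Figure D3:**
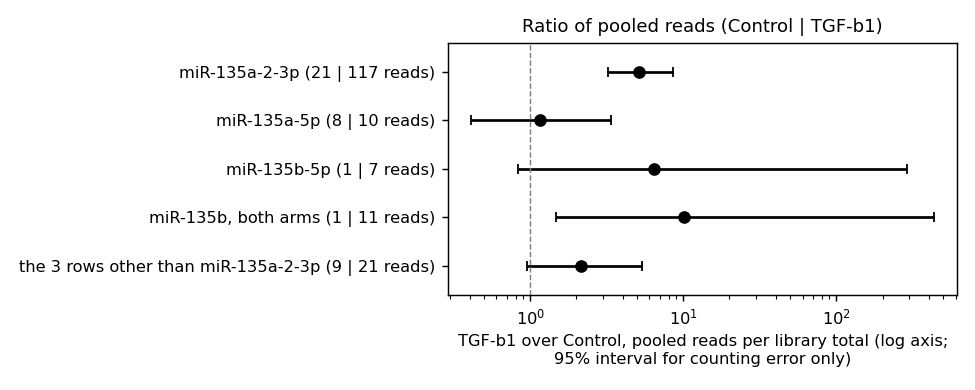
Ratio of pooled reads per library total, TGF-b1 over Control (x axis, log scale), for 3 rows of the family, both arms of mir-135b and the 3 rows other than miR-135a-2-3p, with 95% intervals for counting error and the reads of each group beside the name. The intervals run from 3.20 to 8.60 for miR-135a-2-3p, from 0.409 to 3.35 for miR-135a-5p, from 0.828 to 290.4 for miR-135b-5p and from 1.47 to 435.8 for both arms of mir-135b.

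Among reads of miR-135a the 3p row was the larger in every library, although the 5p row collects reads of both miR-135a hairpins. Its share was 66.7, 75 and 72.7% in Control replicates 1 to 3 and 100, 90.6 and 86% in TGF-b1 replicates 1 to 3. The groups did not overlap, which was also so in the same direction for 17 of 217 other hairpins (7.83%) with at least 20 reads of both arms together in each group. Nothing is read from that comparison, since the share contains the row that was chosen. Pooled, the share was 72.4% in Control (21 of 29 reads, 95% Clopper-Pearson interval 52.8 to 87.3) and 92.1% in TGF-b1 (117 of 127 reads, 86.0 to 96.2). A 3p arm above its 5p arm was common in the table, at 103 of those 217 hairpins in Control and 103 in TGF-b1. On the log2(RPM + 1) scale the 3p row exceeded the 5p row by 0.28 in Control and by 1.39 in TGF-b1, a difference of 1.11 ± 0.17 (SE).

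**Figure D4:**
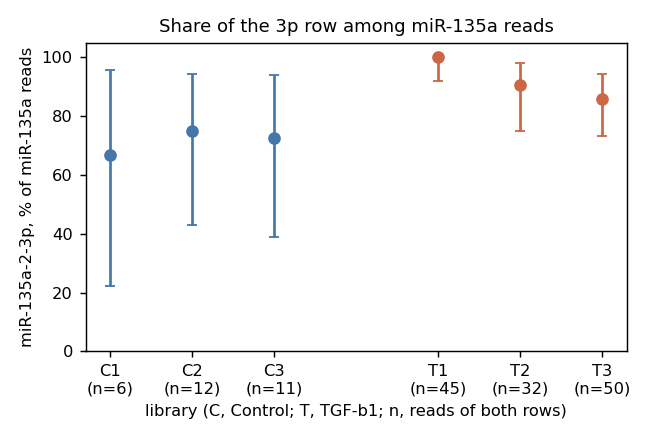
Share of miR-135a reads (y axis, percent) that belong to miR-135a-2-3p in each Control (C1 to C3) and TGF-b1 (T1 to T3) library, with 95% Clopper-Pearson intervals and the reads of both rows under each name. The Control libraries, at 66.7 to 75%, rest on 6 to 12 reads each and the TGF-b1 libraries, at 86 to 100%, on 32 to 50.

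The nearest annotated miRNA gene with a row was taken for each hairpin, to set the family beside its surroundings. Mirlet7g, 24627 bp from Mir135a-1, gives let-7g-5p of the let-7 family, with a mean of 8188 ± 325.9 RPM in Control against 7889 ± 366.1 RPM after TGF-β1 (SD, n = 3 each). The log2 difference of -0.05 ± 0.06 (SE) did not pass (limma, Benjamini-Hochberg adjusted p = 0.458), and its sign was positive under the other 4 scalings, at 0.09 to 0.26. Next to Mir135a-2, at 1090600 bp, Mir1931 gives miR-1931, with 1.08 ± 0.0671 and 0.971 ± 0.276 RPM (SD, n = 3 each). Its log2 difference of -0.09 ± 0.14 did not pass either (limma adjusted p = 0.626) and was above 0 under 3 of the 4 other scalings (TMM, upper quartile and median of ratios). Mir128-1, at 3995652 bp from Mir135b, gives miR-128-3p, a miRNA typical of neurons that is also made from another hairpin. miR-128-3p fell from 356.3 ± 28.6 to 232.6 ± 5.28 RPM, a log2 difference of -0.61 ± 0.09 (limma adjusted p = 0.00139), and it did not pass with upper-quartile scaling (adjusted p = 0.149). The passenger arms let-7g-3p and miR-128-1-5p had means of at most 0.119 RPM and were not tested.

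miR-135a is 1 of a set of miRNAs known to repress Runx2 in bone-forming cells, and the other 10 of that set were followed for context. Of these 9 had a row, 4 passed the filter, 2 rose, 1 fell and 1 did not pass, beside 17.4% higher and 31.9% lower (130 rows) of the 408 rows tested. The median log2 difference of the 4 was 0.03, against -0.17 over all rows tested. The members thus went in both directions.

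miR-23a-3p, of the miR-23a/27a/24-2 cluster, rose from 827.5 ± 112.2 to 1199 ± 113.8 RPM, a log2 difference of 0.54 ± 0.12 (limma adjusted p = 0.00711). miR-34c-5p, of the p53-responsive miR-34 family, rose from 3845 ± 222.1 to 4770 ± 181.8 RPM, a log2 difference of 0.31 ± 0.06 (limma adjusted p = 0.00502). miR-30c-5p, of the miR-30 family, fell from 61.2 ± 10.6 to 20.0 ± 7.96 RPM, a log2 difference of -1.62 ± 0.26 (limma adjusted p = 0.00183). In each of these 3 rows the Control and TGF-b1 libraries did not overlap. Over the 408 rows tested, the TGF-b1 libraries lay above Control without overlap in 20.8% and below in 36%. miR-204-5p had 1.37 ± 0.398 and 0.966 ± 0.112 RPM and did not pass (log2 difference -0.26 ± 0.15, limma adjusted p = 0.196), although its TGF-b1 libraries lay below its Control libraries, as in 36% of the 408 rows. The members too low to test were miR-218-5p with 35 and 27 reads in Control and TGF-b1, miR-133a-3p with 4 and 2, and miR-205-5p, miR-217-5p and miR-338-3p with 2 and 0 each. miR-137-3p was not analysed here.

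The rows most like miR-135a-2-3p were sought by Pearson's r of log2(RPM + 1) over the 6 libraries, which share their depth and group, among the other rows that passed the filter. They were miR-329-5p (r = 0.988), an arm of the Dlk1-Dio3 imprinted miRNA cluster, miR-455-5p (r = 0.983), from an intron of the collagen gene Col27a1, and miR-23a-5p (r = 0.981), the passenger arm of miR-23a. Because they were picked for following a row that was itself chosen for its difference, their direction was set by the choice and is not tested. miR-455-5p had 0.669 ± 0.330 RPM in Control against 3.34 ± 0.306 RPM after TGF-β1, a log2 difference of 1.40 ± 0.17 (SE). The values of miR-23a-5p were 13.1 ± 1.58 and 24.7 ± 3.66 RPM, and those of miR-329-5p were 0.768 ± 0.119 and 1.79 ± 0.300 RPM.

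Marker miRNAs of the labelled and of other cell types were summed in each library. The 4 markers of contractile mesenchymal cells, miR-143-3p, miR-145-5p, miR-199a-3p and miR-214-3p, were all present and summed to 2575 to 2946 RPM in Control and 2603 to 3066 in TGF-b1, so the groups overlapped. The sum was mostly miR-143-3p, and its members moved apart. miR-145-5p rose from 97.3 to 148.3 RPM in Control to 230.8 to 246.6 RPM in TGF-b1 (log2 difference 0.92, limma adjusted p = 0.00235), whereas miR-199a-3p was lower by RPM (log2 difference -0.31, limma adjusted p = 0.0219) but did not pass under any of the 4 other scalings. The 6 epithelial markers, miR-205-5p and the miR-200 family, summed to 22.2 to 25.5 RPM in Control and 1.67 to 2.53 in TGF-b1. Nearly all of this was miR-200a-3p (644 reads in Control and 68 in TGF-b1), miR-200b-3p (342 and 34) and miR-429-3p (202 and 16). The others were almost absent, with miR-200c-3p at 1 and 2 reads, miR-141-3p at 1 and 0 and miR-205-5p at 2 and 0. The 4 neuronal markers, listed because miR-135a is known from the brain, summed to 329.7 to 385.5 and 231.1 to 242.0 RPM, nearly all of it miR-128-3p, and its members did not move together. miR-124-3p was at 1.09 to 1.74 and 0.351 to 0.892 RPM, miR-9-5p at 0.659 to 1.02 and 1.04 to 1.06 RPM, and miR-138-5p at 1.86 to 2.33 and 1.45 to 2.05 RPM. By RPM miR-124-3p was called lower, like miR-128-3p (log2 difference -0.50, limma adjusted p = 0.0454 for miR-124-3p). The call of miR-124-3p did not pass under any of the 4 other scalings. Neither miR-9-5p nor miR-138-5p passed (limma adjusted p = 0.428 and 0.370). The 3 skeletal muscle markers, mostly miR-206-3p, summed to 3440 to 3646 and 3285 to 3465 RPM. The endothelial marker miR-126-3p stayed at or below 0.0992 RPM, and the blood markers with a row, 2 of 4, summed to 0.114 to 0.360 and 0 to 0.0585 RPM. No marker with a row was at 0 in all 6 libraries. The epithelial, neuronal and blood sums were lower in TGF-b1 without overlap, as were 36% of the 408 single rows that passed the filter. The blood sum rested on few reads, with miR-451 at 10 in Control and 1 in TGF-b1. Its other member, miR-144-3p, went the other way at 0 and 1, so the lower blood sum was that of miR-451 alone. These sums went opposite to miR-135a-2-3p, and their part in its difference was not tested.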

How the data were processed

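Small RNA of mouse primary mesangial cells was measured in 3 Control and 3 TGF-b1 libraries (extracted with TRIzol). Per the labels and the study's methods, reads under 18 nt were removed and the rest were compared with miRBase 17 using Bowtie. The deposited values, named TPM by the authors, are RPM of the library total. Each total was recovered as the integer that makes the values whole reads, and 100% of values came out whole within 0.002 reads. No column was left out.

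The fit used limma 3.58.1 under R 4.3.3 on log2(RPM + 1), a trended prior and a single term for group, over 408 of 778 rows kept by filterByExpr of edgeR 4.0.16 at a minimum count of 10. P-values were adjusted by Benjamini-Hochberg and called under 0.05. Rows that did not pass took their difference from the fit without the filter. Ratios of pooled reads carry exact conditional intervals (scipy 1.17.1). Between libraries of a group the chi-square statistic of the reads was 43.2 to 137.9 times its degrees of freedom, and no pair was treated as a repeat deposit.

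Named rows are the family, the nearest miRNA gene of each hairpin, rows sharing a seed, the Runx2 set, the 3 rows most like any family row with a mean of 10 reads, and cell type markers. The family and all lists were chosen with earlier results of these data known. Of the 778 rows, 581 matched a RefSeq mature sequence. Positions come from GENCODE vM1 on NCBIM37, the build the study used for RNA reads. Fits were tested on simulated reads. Alternatives were 4 other scalings, pseudocounts of 0.1 and 10 RPM, larger fold thresholds, omission of the filter or a filter at a mean of 50 reads, each library left out, a replicate block, edgeR and DESeq2 1.42.0 on the recovered reads, and ratios without a pseudocount.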

Additional observations from a re-analysis of the deposited data

How the results depend on the processing

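The row miR-135a-2-3p was chosen as higher and its libraries did not overlap, so its direction under the alternatives is no support. Its log2 difference kept that direction under every alternative run, while its size followed the pseudocount. It was 1.14 as reported, 1.37 with scaling to the sum of the listed rows, 2.14 and 0.22 with pseudocounts of 0.1 and 10 RPM, 2.54 with edgeR and TMM, 2.34 with edgeR and library totals, 2.57 with DESeq2, and 2.36 as the ratio of group means or of pooled reads. miR-135a-5p, at 0.03, was 0.42, 0.22 and 0.46 in the same 3 count fits (edgeR with TMM, edgeR with library totals, DESeq2) and 0.29 from group means, but -0.10 with a pseudocount of 0.1 RPM and without TGF-b1 replicate 3. miR-135b-5p, at 0.14, was 0.70 with a pseudocount of 0.1 RPM, 2.52, 2.33 and 2.90 in the count fits, 2.72 from group means and 2.69 from pooled reads. miR-135b-3p, at 0.10, was 0.70 and 0.011 with pseudocounts of 0.1 and 10 RPM and 3.60, 3.50 and 3.00 in the count fits, whose values for a row with 0 Control reads depend on their prior and are no bounds. The arm difference of miR-135a, 1.11, was 2.24 and 0.21 with pseudocounts of 0.1 and 10 RPM, 2.13, 2.12 and 2.10 in the count fits, 2.07 from group means and 2.16 from pooled reads, and between 0.96 and 1.22 with 1 library left out. Scaled to the listed rows, mean RPM was 2.94 for miR-135a-2-3p in TGF-b1 and 0.197 for miR-135a-5p in Control. With a mean of at least 50 reads no miR-135 row gets a value.

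Over all rows tested, 201 were called, and 162 to 208 with 1 library left out. Of these, 130 (64.7%) were lower, against 49.0% of 192 with TMM and 49.7% of 185 with median-of-ratios scaling. The lower calls were 73 with upper-quartile scaling (43.5% of 168) and 72 with DESeq2 (49.0% of 147). Above a log2 difference of 1 the calls were 50, 18 higher and 32 lower, and above 2 they were 6, 0 higher and 6 lower. For that 0 the limma count at an unadjusted p under 0.05 was also 0, and edgeR with TMM gave 8. Above 1 the Runx2 set had 0 rows higher and 1 lower, and above 2 it had 0 and 0, with 0 in each of these also by unadjusted limma p and by edgeR. At any fold its 2 higher and 1 lower rows were called under every other alternative.

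Libraries with the same replicate number did not deviate together (r = -0.08, -0.21 and -0.34). The labels state no pairing, and with 3 libraries a group these values cannot decide it. In this balanced design the replicate block cannot change the log2 differences, 1.14 for miR-135a-2-3p among them. It gave 176 calls, 61 higher and 115 lower. All 4 rows had under 10 reads in every Control library, so counting error limits each of their ratios.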
